A study of Mus musculus with 4 samples.

Results

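Voltage-gated sodium and calcium channel genes were followed through a map of CTCF binding in cultured mouse cortical neurons. The set held 33 of the 21774 protein-coding genes placed on mouse chromosomes in the RefSeq annotation of GRCm38.p6. Its genes were picked by name and not by their binding, but with earlier results of these data known. There were 12 sodium channel genes, 18 calcium channel genes, and Nalcn, Unc79 and Unc80, which encode the sodium leak channel complex. By role, 20 genes encode a pore and 13 encode an auxiliary subunit. All 33 were found in the annotation under their current symbols.

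The data belong to work on TOP2B, a DNA topoisomerase of neurons. They were 2 CTCF chromatin immunoprecipitations and 2 input libraries from WT Swiss-Webster cortex, dissected at embryonic day 16 and kept in culture for 13 days. All 4 libraries carried the same genotype and no treatment, although the culture notes also mention etoposide, a topoisomerase poison. With 1 condition there was no contrast between groups of samples. Each comparison is therefore between the channel genes and all protein-coding genes, or between classes of channel genes, within 1 list of peaks, and none was tested. A peak list cannot show whether the cells were neurons, and dissociated cortex can also hold other cells.

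A voltage-gated channel is a large membrane protein whose pore opens when the membrane potential changes. Sodium channels carry the rising phase of the action potential in axons, while calcium channels let in the calcium that triggers transmitter release and gene expression. Auxiliary subunits bind the pore and alter its gating and its transport to the membrane. CTCF binds DNA through a row of zinc fingers and, where it halts the cohesin complex, marks the base of a chromatin loop. It is bound at many promoters and between them.

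The deposited list joined both immunoprecipitations into 33820 peaks, of which 33815 lay on assembled chromosomes. All had passed an irreproducible discovery rate (IDR) of 0.05, a measure of how well the replicates rank a peak alike. The summit is the position of highest signal in a peak. The authors also give each peak a joint strength, which adds up the −log10 p from its call in either replicate. The median −log10 p of a peak was 30.87 in the first of the replicate columns, against 128.9 in the second, which was the higher in 90.7% of peaks. Read depth is unknown, and so is which labelled library each column holds. The channel genes had 190 distinct summits in them or within 50 kb, with a median peak width of 1111 bp, against 1123 bp over the list.

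A CTCF summit lay within 1 kb of either end of 11 of the 33 channel genes (33.3%, exact 95% interval 18 to 51.8), against 29.2% of all protein-coding genes. These 11 were Scn2a, Scn3a, Scn8a, Cacna1a, Cacna1h, Cacna1i, Cacna2d1, Cacna2d3, Cacnb2, Nalcn and Unc80. A summit inside the gene, more than 1 kb from both ends, was found in 30 of 33 (90.9%, interval 75.7 to 98.1), against 35.5% of all protein-coding genes. A summit outside, within 50 kb, was found for 28 of 33 (84.8%), against 77.1%. No channel gene lacked all 3 kinds of summit, against 17.1% of all protein-coding genes. That background share differed with length, from 30.1% of genes under 10 kb, where no channel gene lies, to 4.16% of those of 100 kb and over. The intervals cover counting error only.

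Channel genes are long, from 12.2 to 817.8 kb with a median of 130 kb, against a median of 17.2 kb over all protein-coding genes. Length moved with the end and inside shares. Of the 22 channel genes of 100 kb and over, 10 had an end summit (45.5%), against 43.1% of all protein-coding genes of that length. A summit inside was present in 21 of those 22 (95.5%, interval 77.2 to 99.9), against 83.9%. A summit within 50 kb outside was present in 17 (77.3%), against 73.8%. All 8 channel genes of 300 kb and over had a summit inside (interval 63.1 to 100), against 91.4%. Both of these inside intervals include the value for all protein-coding genes of that length. At 100 kb and over the end and flank shares of channel genes stood near the background. Of the 11 channel genes under 100 kb, 1 had an end summit (9.09%), against 27.4%, and 9 had a summit inside (81.8%), against 29.5%. The interval of that end share ran from 0.23 to 41.3% and includes the value for all protein-coding genes. These shorter channel genes had a median length of 28.1 kb, against 14.1 kb, so those inside shares were not at matched length. From 10 to 30 kb, 4 of 6 channel genes had a summit inside (66.7%, interval 22.3 to 95.7), against 33.1%. From 30 to 100 kb all 5 had one (interval 47.8 to 100), against 57.2%. Both intervals include the value for all protein-coding genes of the class.

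**Figure D1:**
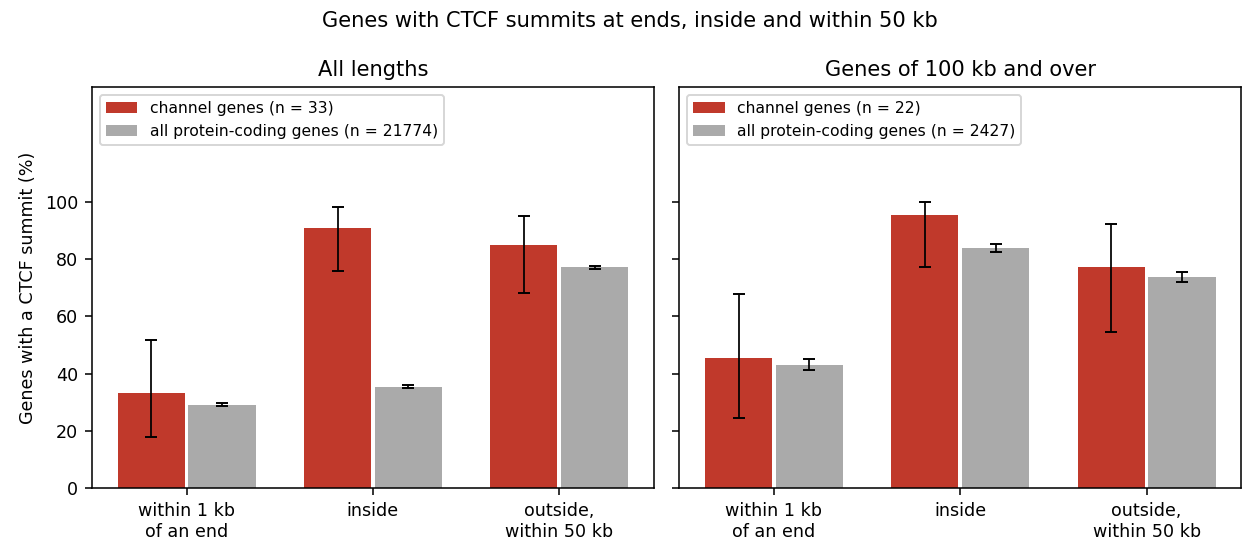
Share of genes, in percent, with a CTCF summit within 1 kb of an end, inside, or outside within 50 kb, for channel genes (red) and all protein-coding genes (grey), at all lengths and at 100 kb and over. Bars carry exact 95% binomial intervals. Over all lengths the inside share was 90.9% for channel genes and 35.5% for all, while at 100 kb and over it was 95.5% and 83.9%.

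To show what lay under the summits, the 250 bases before an annotated start were read for the channel genes whose start window held a summit. Starts and sequences are those of a RefSeq promoter table of GRCm38.p6, which gave a start and strand for 27 of the 33 genes. A CTCF core motif was searched on both strands in 2 forms, the letters CCNNNAGNNGGC and the shorter CCNNNAGNNGG, which is the first form without its last letter and was added after the values were seen. Capitals mark a match to the shorter form, with the last letter added where the longer form matched. The neurons were Swiss-Webster, so the reference letters need not be theirs at every base.

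Among the sodium channel pore genes, 3 of 9 had a summit at an end. Scn8a, which encodes the sodium channel of nodes of Ranvier and axon initial segments, had the strongest end peak of all channel genes. The gene (NCBI gene 20273) lies at chr15:100869863-101045938, and the summit stood 694 bp inside its lower end and 88 bp before its annotated start. Its joint strength was 603.6, above 93.3% of all peaks, from a −log10 p of 386.7 in the first replicate column beside 216.9 in the second. This peak went against the list as a whole, where the second column was usually the higher. The start window of Scn8a, at chr15:100870395-100870644 on the plus strand, is shown because it holds this summit. Its match, to the longer form on the strand opposite the gene, has its centre 73 bp from the summit.
Scn8a start: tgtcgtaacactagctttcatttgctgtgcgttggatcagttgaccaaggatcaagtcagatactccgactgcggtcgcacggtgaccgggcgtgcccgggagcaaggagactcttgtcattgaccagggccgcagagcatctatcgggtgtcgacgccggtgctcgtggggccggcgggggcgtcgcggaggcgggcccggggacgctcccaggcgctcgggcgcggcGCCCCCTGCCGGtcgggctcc

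Scn2a encodes the main sodium channel of excitatory neurons in the young cortex and lies at chr2:65620764-65767447 (NCBI gene 110876). Each of its 2 annotated starts had a summit close by. The first summit stood 87 bp before the start at the lower end of the gene, with a joint strength of 422.3 from 42.34 in the first column and 380.0 in the second. The second stood 119 bp before a start inside the gene, 47.8 kb from that end, with a joint strength of 391.7 from 116.0 and 275.7. Both windows are shown for comparison of the sites, chr2:65620519-65620768 for the first and chr2:65668436-65668685 for the second, each on the plus strand. The window of the first start is 29.6% G and C, and its match, to the shorter form on the strand of the gene, has its centre 17 bp from the summit. The window of the second start is 53.2% G and C. It holds a match to the longer form on the opposite strand, 25 bp from the summit, and a match to the shorter form 68 bp from it.
Scn2a first start: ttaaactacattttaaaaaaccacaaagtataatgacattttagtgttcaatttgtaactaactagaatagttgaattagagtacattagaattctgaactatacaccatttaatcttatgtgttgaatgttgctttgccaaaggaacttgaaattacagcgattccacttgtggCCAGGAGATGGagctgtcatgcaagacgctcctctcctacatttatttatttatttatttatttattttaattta
Scn2a second start: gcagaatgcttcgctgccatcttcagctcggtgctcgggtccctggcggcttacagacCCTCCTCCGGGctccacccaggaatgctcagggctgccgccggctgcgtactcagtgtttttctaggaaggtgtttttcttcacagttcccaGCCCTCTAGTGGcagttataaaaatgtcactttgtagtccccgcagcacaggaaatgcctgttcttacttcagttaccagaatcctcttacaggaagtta

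Scn3a encodes a sodium channel most abundant in the embryonic and newborn brain. It lies at chr2:65457118-65567591 (NCBI gene 20269), next to Scn2a. Its only end summit stood 2 bp beyond its upper end, with a joint strength of 417.5 from 49.31 in the first column and 368.2 in the second. The strand and start of Scn3a are not in the table used here, so which end this is was not determined. At both Scn2a and Scn3a the second column exceeded the first by about the same factor, by 3.17 at the lower end of Scn2a and 2.90 at Scn3a on the log2 scale. That is above the median of 0.40 for end peaks of all protein-coding genes. No summit was called inside Scn3a, 1 of 3 channel genes without one.

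Scn3a and Scn2a form part of a run of 5 sodium channel genes on chromosome 2, which ends with Scn1a, Scn9a and Scn7a. Scn1a encodes the sodium channel of inhibitory interneurons, Scn9a that of pain-sensing neurons, and Scn7a an atypical channel that responds to the sodium level. The run spans 1327.8 kb, chr2:65457118-66784910, and holds 8 protein-coding genes. It held 13 summits, 0.979 per 100 kb (exact Poisson 95% interval 0.521 to 1.67), against 1.49 over chromosome 2 and 1.27 over all chromosomes. Inside the 5 genes there were 4 summits, 0.577 per 100 kb (0.157 to 1.48), while the other 4 sodium channel pore genes had 14, or 3.44 per 100 kb (1.88 to 5.78). The other 4 were Scn4a, Scn8a, Scn10a and Scn11a, and 7 of those 14 summits were in Scn8a. The counting intervals of these densities did not overlap, but they leave out the spread between genes, and the groups were not matched for length. The 5 genes of the run are 110.5 to 170.1 kb long, while Scn4a and Scn11a are 48.0 and 71.7 kb. All protein-coding genes had 1.38 summits inside per 100 kb at lengths of 100 to 300 kb, and 1.86 at 30 to 100 kb. The interval of the 5 genes of the run, 0.157 to 1.48, includes the 1.38 of their own length class.

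Each gap between neighbouring channel genes of the run held at least 1 summit. The 53.2 kb between Scn3a and Scn2a held the 2 end summits already given, and no other. A single summit of joint strength 239 stood in the 39.2 kb between Scn1a and Scn9a, and a single one of 190 in the 38.3 kb between Scn9a and Scn7a. The strongest summit of the run, 472.3, stood 14.1 kb below Scn1a, within 1 kb of an end of Ttc21b. The start of Scn1a had no summit nearby, and its nearest, of joint strength 340.8, lay 30.7 kb inside the gene. Scn9a and Scn7a had 1 summit inside each, of 81.39 and 105.2, and their nearest summits to an annotated start were 9.6 and 15.2 kb away.

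**Figure D2:**
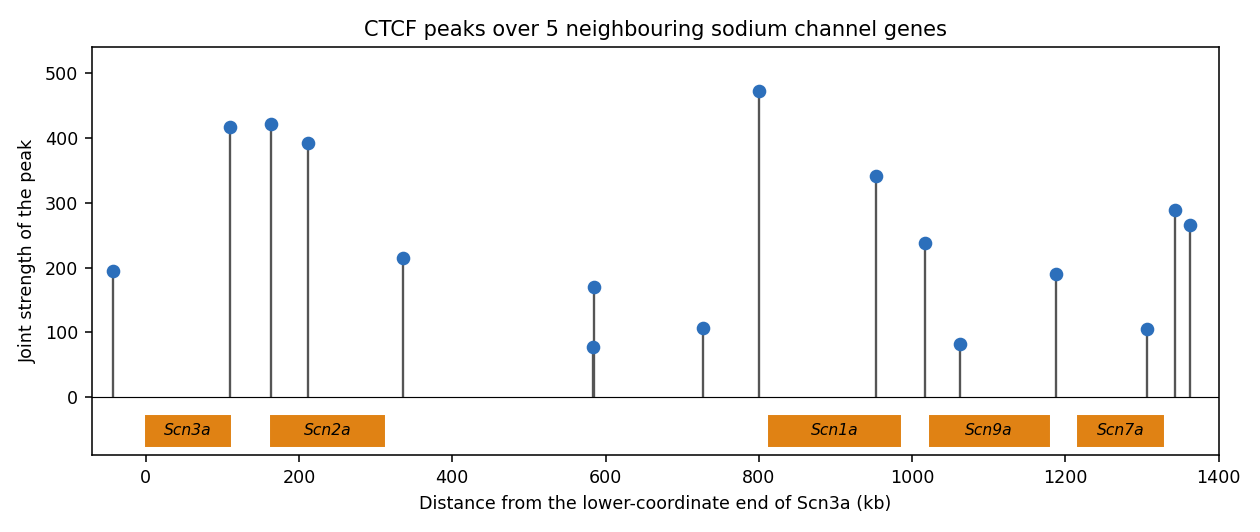
Joint strength of each CTCF peak (points, with lines to 0) against its distance in kb from the lower-coordinate end of Scn3a, over the chromosome 2 run of sodium channel genes and 50 kb on either side, with the 5 genes as orange boxes. Peaks of 417.5 and 422.3 face each other across the gap between Scn3a and Scn2a, and each of the 2 gaps among Scn1a, Scn9a and Scn7a holds 1 peak.

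The remaining sodium channel pore genes are known mostly from other tissues. Scn4a encodes the skeletal muscle channel. It had a summit of joint strength 274.4 at 1011 bp beyond its upper end, just outside the 1 kb window, and 2 inside, the stronger of 370.8. Scn10a and Scn11a, neighbours on chromosome 9, encode channels of peripheral sensory neurons. They had 2 and 3 summits inside, all weak, from 38.45 to 87.43 in joint strength. A single summit, of 175, stood in the 34.4 kb between them. The strongest peak near them, of 517.8, lay 27.6 kb below Scn10a.

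None of the 3 genes of this set for auxiliary sodium channel subunits had an end summit. They encode small single-pass membrane proteins with an immunoglobulin-like domain, which also act in cell adhesion. Scn2b and Scn4b lie 8.6 kb apart on chromosome 9 and had 1 summit inside each, of 389.3 and 325.4, with 1 of 105 between them. The summit inside Scn2b stood 4061 bp after its start, with the replicate summits 1751 bp apart. Scn3b had none inside, and its 3 summits within 50 kb, of 482.7, 511.6 and 543.7, lay 39.2 to 42.2 kb away. Of these 3, the 2 above the gene lay in Gramd1b.

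**Figure D3:**
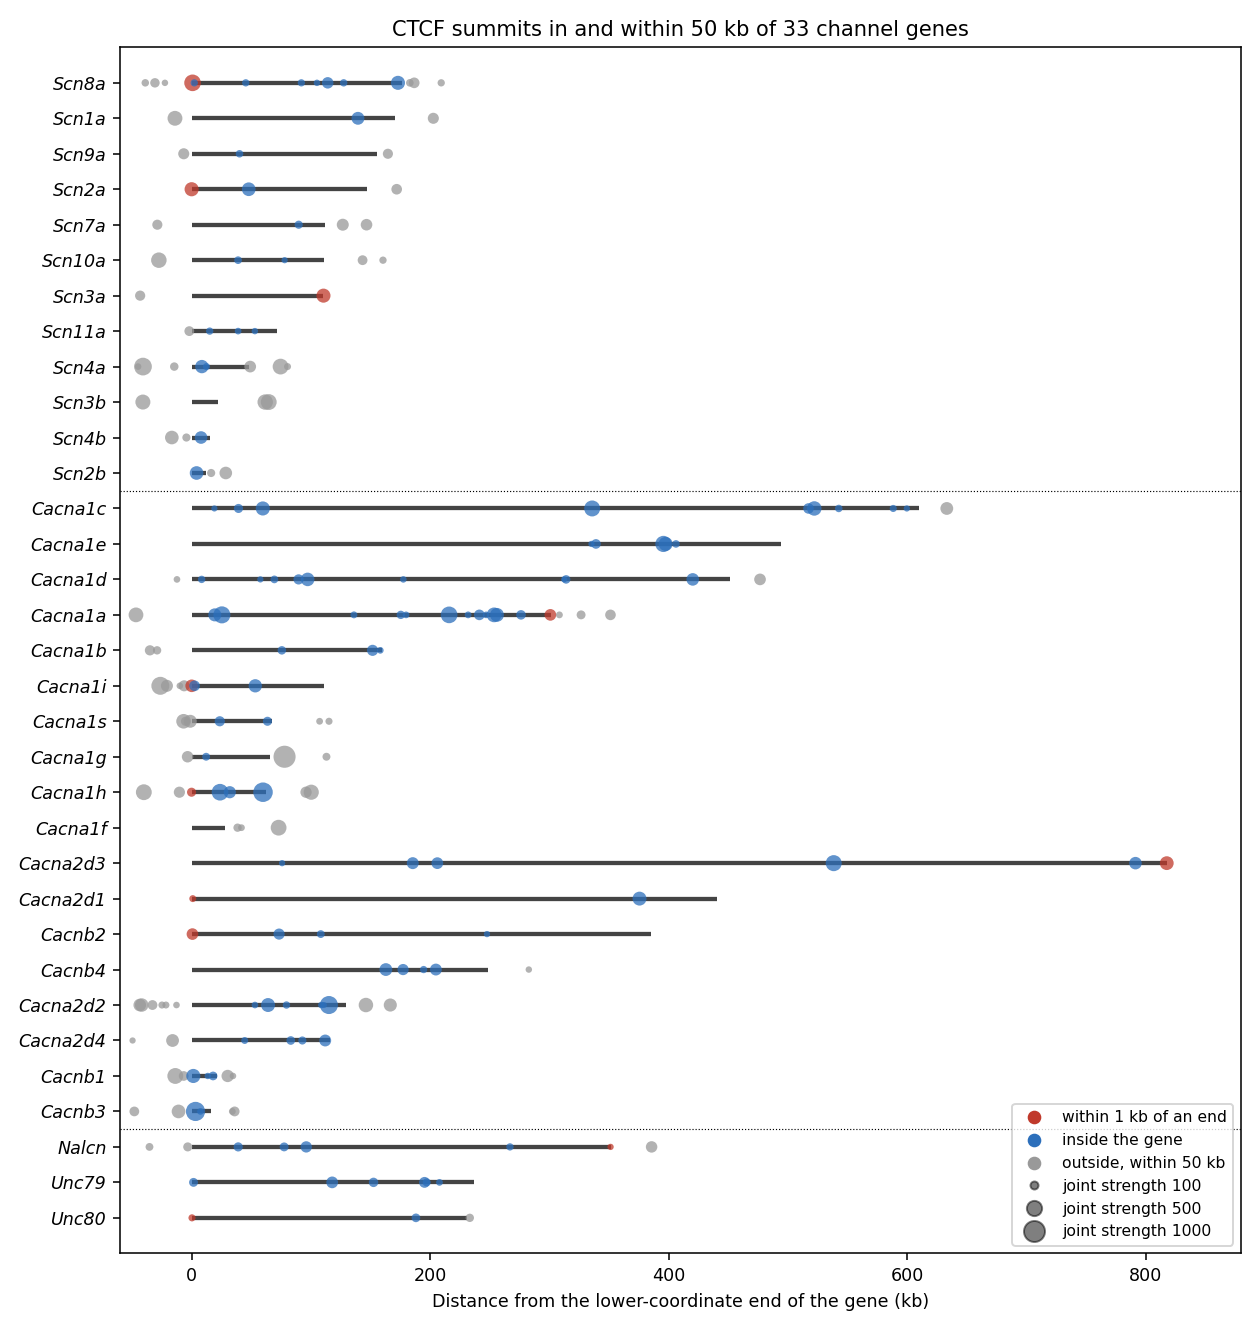
CTCF summits in and around each of the 33 channel genes, drawn as distance in kb from the lower-coordinate end of the gene, with sodium, calcium and sodium leak genes from top to bottom. Black lines are genes and the point area grows with joint strength, red within 1 kb of an end, blue inside and grey outside within 50 kb. Red points mark 11 genes, and Cacna1a carries the most blue points, 12.

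Calcium channel pore genes fall into 3 classes. The P/Q-, N- and R-type channels, which open at strong depolarisation and drive transmitter release, are encoded by Cacna1a, Cacna1b and Cacna1e. Cacna1a, at chr8:84338631-84640251 (NCBI gene 12286), had 12 summits inside, the most of any channel gene. Of these, 2 were among the 5 strongest inside channel genes, with joint strengths of 637.2 and 608.6. It also had an end summit 861 bp inside its upper end, of 271.1 from 156.1 in the first column and 115.1 in the second. The strand of Cacna1a is not in the table used here. Its 12 summits gave 3.98 per 100 kb, while the 8 channel genes of 300 kb and over together had 1.25, and 1.01 without Cacna1a.

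Cacna1b had a summit of 52.50 at 1218 bp inside its upper end, 1170 bp after its start, and 2 further inside. Cacna1e had no end summit and none within 50 kb outside, but 5 inside. Of these, 2 stood close together, 98.4 and 96.6 kb from its upper end, with joint strengths of 571.1 and 413.2. The weakest of the 5, at 39.87 (14.20 in the first column and 25.67 in the second), lay 110 bp before an annotated start inside the gene, above only 3.04% of all peaks. That start window, at chr1:154725921-154726170 on the minus strand, is shown because a weak peak there sits close to a match. The shorter form matched on the strand of the gene, with its centre 12 bp from the summit.
Cacna1e inner start: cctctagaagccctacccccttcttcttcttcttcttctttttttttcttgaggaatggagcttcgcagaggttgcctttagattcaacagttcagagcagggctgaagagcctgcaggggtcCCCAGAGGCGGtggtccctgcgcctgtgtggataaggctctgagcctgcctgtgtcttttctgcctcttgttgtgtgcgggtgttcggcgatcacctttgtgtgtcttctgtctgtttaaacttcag

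L-type channels link depolarisation to gene expression and to muscle contraction. None of their 4 pore genes, Cacna1c, Cacna1d, Cacna1f and Cacna1s, had an end summit. Cacna1c and Cacna1d, the brain and heart L-type genes, had 9 summits inside each, the most after Cacna1a. In both genes 1 of these stood near an inner start. Cacna1c had a peak of 443.6 at 826 bp before such a start, from 64.59 in the first column and 379.0 in the second, and its replicate summits lay 1335 bp apart. The Cacna1c summits of 66.99 and 39.04 also lay in the bounds of Dcp1b. Cacna1d had a peak of 120.7 at 412 bp before its inner start, from 68.07 and 52.58. The outermost starts of Cacna1c and Cacna1d had their nearest summits 9.5 and 25.4 kb away. Cacna1s, of skeletal muscle, had a peak of 343.8 at 1201 bp below its lower end, within 1 kb of an end of Ascl5. The replicate summits of that peak lay 770 bp apart. Cacna1f, of the retina, had no summit inside, and of its 3 flanking summits 2 lay in Syp, which encodes synaptophysin, and 1, of 539.8, in Magix.

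T-type channels open at small depolarisations and support burst firing. Of their 3 genes, Cacna1h and Cacna1i had an end summit and Cacna1g did not. Cacna1i, at chr15:80287238-80398292 (NCBI gene 239556), had a peak of 325.6 at 31 bp before its start, from 174.1 in the first column and 151.5 in the second. Its start window, chr15:80286988-80287237 on the plus strand, is shown as the one whose summit is nearest an end on the start side. It holds no match to either form. The strongest peak near Cacna1i, of 716.7, stood 26.3 kb below it, within 1 kb of an end of Rps19bp1.
Cacna1i start: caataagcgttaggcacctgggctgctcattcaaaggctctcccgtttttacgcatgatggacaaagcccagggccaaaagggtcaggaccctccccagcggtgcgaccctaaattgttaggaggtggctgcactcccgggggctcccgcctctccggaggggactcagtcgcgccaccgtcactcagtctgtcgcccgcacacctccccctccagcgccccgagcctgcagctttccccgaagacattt

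Cacna1h, at chr17:25374285-25436334 (NCBI gene 58226), had an end summit of 143.0 at 147 bp below its lower end, from 46.77 in the first column and 96.24 in the second. That summit also lay within 1 kb of an end of Tpsg1, a tryptase gene, and the strand of Cacna1h is not in the table used here. Cacna1h was the only gene under 100 kb among the 11. It also held the strongest summit inside any channel gene, of 852.1, from 429.3 and 422.8, at 2272 bp from its upper end. Cacna1g had 1 summit inside, of 93.79. The strongest peak within 50 kb of any channel gene, of 1108, stood 11.8 kb above it, within 1 kb of an end of Spata20. It was balanced between the columns, with 547.6 and 560.3.

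The auxiliary calcium channel subunits covered by this set are the alpha2delta proteins, which are extracellular and carry channels to the membrane, and the intracellular beta subunits. Of the 4 alpha2delta genes, Cacna2d1 and Cacna2d3 had an end summit. Cacna2d1, the main target of gabapentin, lies at chr5:15934264-16374511 (NCBI gene 12293). Its summit was weak, 60.93 from 21.72 and 39.21, and stood 860 bp inside its lower end and 433 bp after its start, with the replicate summits 635 bp apart. Cacna2d3 is the longest channel gene, at chr14:28904943-29722775 (NCBI gene 12294). Its summit of 399.4 stood 172 bp inside its upper end and 739 bp before its start, with equal support in the columns, 199.2 and 200.1. Inside these 2 genes, stretches of 374.6 and 332.4 kb held no summit, which is 85.1% and 40.6% of their lengths.

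Cacna2d2 had no end summit but 6 inside, 4.63 per 100 kb, the densest of the channel genes of 100 kb and over. The strongest of these, of 722.0 from 299.8 and 422.3, lay 14.6 kb from its upper end. Cacna2d2 also had 8 summits within 50 kb outside, the most of any channel gene. Cacna2d4 had 4 inside, 3.45 per 100 kb, of which those of 124.2 and 102.5 also lay in Lrtm2. Of the summits within 50 kb of Cacna2d4, both were also in or near Cacna1c, its neighbour 39.1 kb away. The single summit in the gap between these neighbours had a joint strength of 337 and lay in Dcp1b.

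Of the 4 beta subunit genes, Cacnb2 alone had an end summit. Cacnb2, at chr2:14603861-14988811 (NCBI gene 12296), had a peak of 269.0 at 596 bp inside its lower end and 151 bp after its start, from 127.7 and 141.3. The replicate summits of that peak lay 436 bp apart. Cacnb3 had the strongest peak at an annotated start, of 823.5 from 412.0 and 411.5. It stood 711 bp before a start that lies inside the bounds of the gene, so it was not an end summit. A weaker one of 52.24 stood 983 bp after a second inner start. Cacnb1 had 3 summits inside its 21.5 kb, 13.9 per 100 kb, the highest density of all 33. Its strongest, of 421.6, was 1336 bp from its lower end. Cacnb4 had 4 inside and the nearest summit to any of its 3 starts was 32.5 kb away.

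Of the 3 genes of the sodium leak complex, 2 had an end summit, and both peaks were weak. Nalcn encodes the leak channel that sets the resting potential, and lies at chr14:123275678-123627330 (NCBI gene 338370). Its summit stood 233 bp after its start with a joint strength of 40.53, from 22.54 and 17.99, above 3.42% of all peaks, and it did not pass an IDR of 0.01. Unc80, a large protein that holds the complex together, lies at chr1:66467915-66699150 (NCBI gene 329178). Its summit stood 209 bp after its start with a joint strength of 67.19, from 33.63 and 33.56. Unc79, its partner, had no summit within 1 kb of an end, but a peak of 134.6, from 73.86 and 60.76, stood 23 bp after an annotated start, 1499 bp from its lower end. Unc79 had 6 summits inside, 2.53 per 100 kb, and Unc80 had 1, with 81.2% of its length in 1 stretch without any.

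Between the families, 3 of 12 sodium channel genes (25%) and 6 of 18 calcium channel genes (33.3%) had an end summit, a difference of −8.33 percentage points. The exact intervals ran from 5.49 to 57.2% for sodium and 13.3 to 59.0% for calcium channel genes, and thus overlapped over most of their range. Among pore genes 7 of 20 (35.0%), and among auxiliary subunit genes 4 of 13 (30.8%), had one, a difference of 4.23 points. Neither difference kept its sign under every alternative setting. A sodium minus calcium difference of 2.78 points was found among peaks above the median joint strength. A pore minus auxiliary difference of −0.769 points was found at an IDR of at most 0.01. Membership just outside the 1 kb window was also close, since Scn4a, Cacna1s, Cacna1b, Cacnb1 and Unc79 had summits 1011, 1201, 1218, 1336 and 1499 bp from an end. Just inside stood Cacna1a and Cacna2d1, at 861 and 860 bp. With a window of 5 kb, 66.7% of channel genes and 51.3% of all protein-coding genes had an end summit.

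Gene bounds do not say which end is the start, and inner starts are missed by them. With annotated starts in their place, 13 of the 27 channel genes with a listed start had a summit within 1 kb of one (48.1%, interval 28.7 to 68.1), against 27.2% of all protein-coding genes with a listed start. Among genes of 100 kb and over the shares were 12 of 19 channel genes (63.2%, interval 38.4 to 83.7) and 46.7% of all. This comparison was added after the data were seen. At an IDR of at most 0.01 the share was 40.7%, against 21.0%, and among peaks above the median joint strength 25.9%, against 12.8%. Of the 27, 8 had a summit at the bound on the start side (29.6%), against 24.3%. None of the 27 had one at the far bound, against 6.57%, a value within the exact interval of 0 to 12.8%. Scn3a, Cacna1a and Cacna1h, whose end summits could not be assigned to a start or far bound, are not among the 27. The 5 genes that only the inner starts added were Cacna1c, Cacna1d, Cacna1e, Cacnb3 and Unc79. Counted by start, 15 of 37 starts of channel genes (40.5%) and 25.6% of all starts had a summit within 1 kb.

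End peaks of channel genes had a median joint strength of 271 (95% interval of the median 60.9 to 422, n = 11), against 161 for end peaks of all protein-coding genes. Summits inside channel genes had a median of 135 (interval 93.8 to 218, n = 105), against 152. Both medians over all protein-coding genes lay within the interval of the channel gene median. Neither order held throughout, since in the first column alone the end median was 49.3 on the −log10 p scale, against 52.9, and at an IDR of at most 0.01 the inside median joint strength was 251, against 208. The first column was the higher in 5 of the 11 end peaks (45.5%), against 28.9% of end peaks of all protein-coding genes. It was the higher in 11 of 105 inside peaks (10.5%), against 6.96%. The median log2 ratio of the second to the first column was 0.01 at channel gene ends and 1.93 inside, against 0.40 and 1.95 for all protein-coding genes. Read depth is unknown, and its part in these ratios was not tested.

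**Figure D4:**
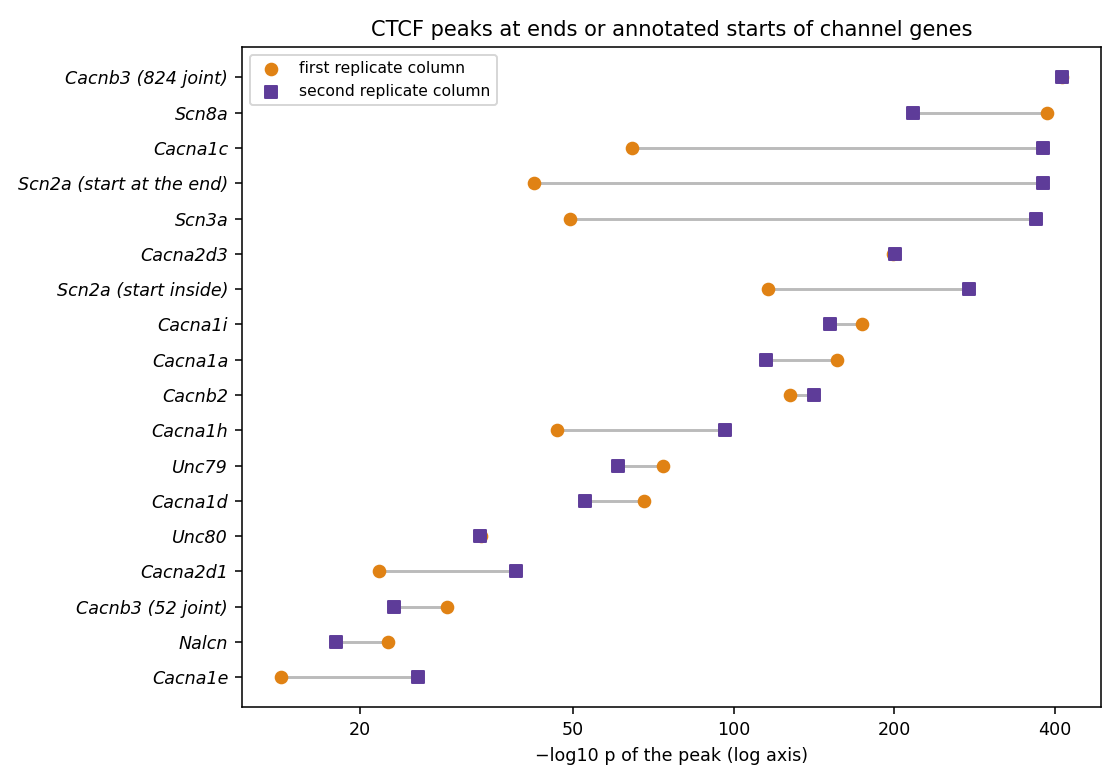
The −log10 p of each CTCF peak within 1 kb of an end or an annotated start of a channel gene, on a log axis, in the first (orange circles) and second (purple squares) replicate column, with grey lines joining the 2 values of a peak and genes in order of joint strength. Cacna2d3, Unc80 and the stronger Cacnb3 peak had nearly equal values, while Scn2a at its lower end had 42.34 and 380.0 and Scn3a 49.31 and 368.2.

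Summits inside the channel genes numbered 105, or 1.62 per 100 kb of gene (exact Poisson 95% interval 1.32 to 1.96), against 1.46 for all protein-coding genes. Over all protein-coding genes density fell with length from 10 kb up, so genes were compared within classes of length. From 10 to 30 kb the 6 channel genes had 6.04 per 100 kb (2.43 to 12.4), against 2.37, and from 30 to 100 kb the 5 had 3.49 (1.74 to 6.25), against 1.86. From 100 to 300 kb the 14 had 1.76 (1.25 to 2.41), against 1.38, and at 300 kb and over the 8 had 1.25 (0.919 to 1.65), against 0.777. Channel genes were thus the denser in each of the 4 classes, by a ratio of 1.28 to 2.55. With all genes kept, the intervals of the 30 to 100 kb and 100 to 300 kb classes include the values for all protein-coding genes. With any 1 gene left out the channel densities stayed above those of all protein-coding genes in each class, the lowest being 4.24, 3.17, 1.57 and 1.01. No interval was computed with a gene left out, so these values do not show whether it would include the background. Cacnb1 held 3 of the 7 summits from 10 to 30 kb, and Cacna1a 12 of the 48 at 300 kb and over. Among peaks that passed an IDR of 0.01, the 4 densities of channel genes were 4.32, 2.22, 1.17 and 0.909 in order of length, against 1.82, 1.40, 1.01 and 0.565.

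Single genes ranged from 0 to 13.9 summits per 100 kb, with a median of 1.80. After Cacna2d2, the densest genes of 100 kb and over were Cacna1a and Scn8a, both at 3.98, then Cacna2d4 at 3.45 and Unc79 at 2.53. At the low end of that length stood Scn3a with none, Cacna2d1 at 0.227 and Unc80 at 0.432. By family the density was 1.74 per 100 kb in sodium channel genes and 1.64 in calcium channel genes, and 1.34 in the leak complex. By role it was 1.79 in pore genes and 1.37 in auxiliary subunit genes, with intervals of 1.39 to 2.27 and 0.967 to 1.89 that overlap.

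**Figure D5:**
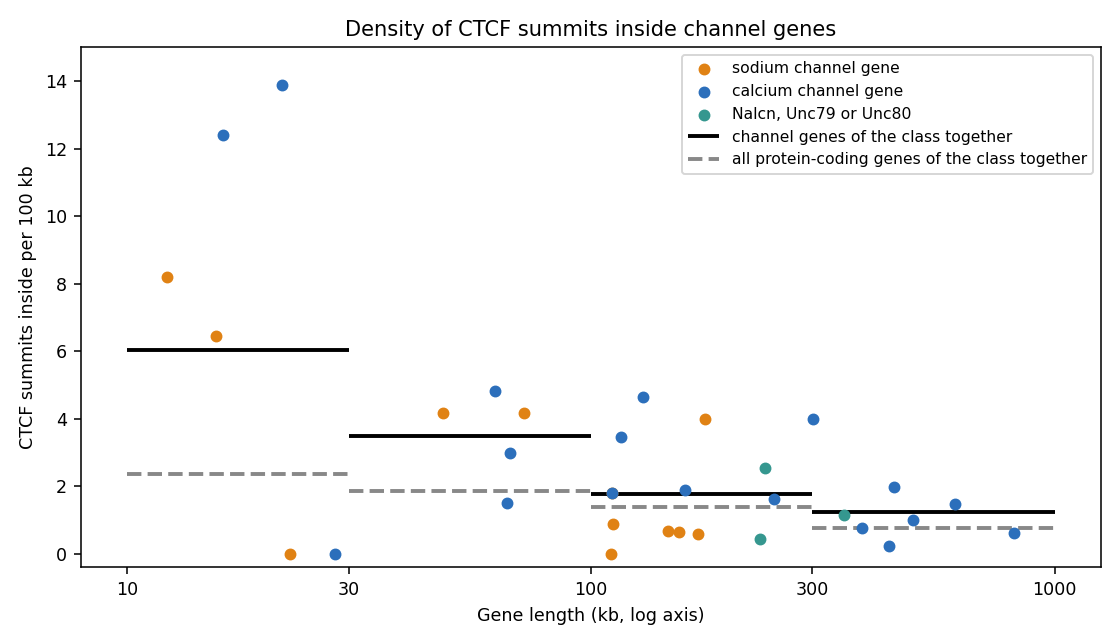
CTCF summits inside each channel gene per 100 kb, against gene length in kb on a log axis, in orange for sodium, blue for calcium and green for leak complex genes. Solid black lines give channel genes of a length class together and dashed grey lines all protein-coding genes of that class. The black line lies above the grey one in each of the 4 classes.

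A list of 19 genes whose products bind these channels or act on them was set beside them. An end summit was found for 7 of the 19 (36.8%), near the background of 29.2%. They were Cabp1, a calmodulin-like regulator of calcium channels (556), Stac3 (421) and Stac2 (47.77), adaptors of L-type channels, their relative Stac (69.51), Fam155a (296.7) and Tmem28 (162.5), of which the first belongs to the sodium leak complex, and Nfasc, an adhesion protein of the axon initial segment (121.1). The values are joint strengths. The end summit of Stac2 is also a flanking summit of Cacnb1, 13.1 kb beyond its upper end. Ank3, the ankyrin that clusters sodium channels at the initial segment, and its relative Ank2 had no end summit, but 11 and 13 inside. The 94 genes with potassium channel symbols had an end summit in 29.8% and a summit inside in 53.2%, with 1.02 per 100 kb. Their median length was 32.7 kb, against 130 kb for the sodium and calcium set, and no test between these sets was made.

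The longer form of the CTCF motif was in 4 of the 37 start windows of channel genes (10.8%), against 9.88% of all 21263 start windows, each of 300 bases. The shorter form was in 12 of 37 (32.4%), against 26.8%. Among the windows that hold a summit, 2 of 6 of channel genes (33.3%) had the longer form and 4 of 6 (66.7%) the shorter, against 33.5% and 52.7% of all 1644 such windows. Among windows with no summit the longer form was in 2 of 31 (6.45%), against 7.90%. The 6 channel gene windows with a summit were those of Scn8a, both Scn2a starts, Cacna1e, Cacna1i and Unc79, and the last 2 held neither form. In the 4 with a match, the nearest match centre lay 12 to 73 bp from the summit. A match is a description of letters in the window, not of a bound site.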

How the data were processed

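CTCF binding was measured by ChIP-seq in 2 immunoprecipitations with 2 inputs. Formaldehyde at 1% for 10 minutes fixed about 15M cells per replicate, and DNA was sheared to 200 to 500 bp, per the labels' protocols. The tools listed in the submitters' processing notes, with no version or role, are MACS2, BWA, SAMtools, Trimmomatic and FastQC. The builds listed there are GRCm38.p6 and mm10.

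The deposited file holds 20 columns in the layout of the IDR program, so peaks were called per replicate by the authors and then joined. The authors deposited a −log10 p for each replicate column and a −log10 of the global IDR. Both vary with sequencing depth, which is unknown. The joint strength, a deposited score, equalled the sum of both columns within 0.001 in all 33820 peaks. The lowest −log10 global IDR was 1.30, and values stop at 5. No column is tied to a labelled replicate, and the list holds no input values.

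Summits (peak start plus offset) were placed against RefSeq gene bounds of GRCm38.p6, after leaving out 348 genes on scaffold coordinates, 113 of them protein-coding. An end summit lies within 1 kb of either bound, an inside summit deeper in the gene, and a flank summit outside within 50 kb. Starts, strands and start sequences came from the RefSeq promoter table of that build. Shares carry exact Clopper-Pearson and densities exact Poisson intervals, at 95%. No test was made, since the data are 1 joint list of 1 condition.

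The members, the list of 19 partner genes and the alternatives were chosen with earlier results of these data known. Genes were named by rule: every gene with an end summit, the 5 with the most summits inside, the 5 densest of 100 kb and over, the 5 strongest peaks inside, the chromosome 2 cluster and partner genes with an end summit. Other channel genes, all annotated starts, flanking peaks and Ank2 and Ank3 were named after their values were seen. Of the partner genes 18 matched by symbol and 1 by synonym (Tmem28, for Fam155b). Alternatives were an IDR of 0.01, peaks above the median strength, each column alone, any base of the peak, windows of 500 bp and 5 kb, unshared ends, and flanks of 25 and 100 kb. The classification code was tested on simulated data. Software was scipy 1.17.1, pandas 2.3.3, numpy 2.4.6 and matplotlib 3.10.9, under Python 3.11.15.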

Additional observations from a re-analysis of the deposited data

How the results depend on the processing

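Of 62 recomputed values, 40 were scored as the same, 17 as moved and 5 as reversed, by the counting intervals of the reported values. A difference of shares could be scored as moved with its value unchanged, as for sodium minus calcium at 5 kb. Medians of a single column were scored against the joint strength, which adds both columns. The tally is therefore a rough description and not a measure of robustness. The cause of the changes was not tested, beyond what each setting removes or adds. At an IDR of at most 0.01 the density inside channel genes was 1.12 per 100 kb (all protein-coding genes 1.10), the median joint strength inside was 251 (208) and so lay above that of all genes, where the reported 135 lay below 152, the pore minus auxiliary difference reversed to −0.769 points, and Nalcn lost its end peak. Among peaks above the median joint strength, 72.7% of channel genes (22.2% of all) had a summit inside, the density was 0.724 (0.683), the partner share was 15.8% (14.9%), and the sodium minus calcium difference reversed to 2.78 points. That setting kept 7 of the 11 end genes and lost Unc80, Cacna2d1, Nalcn and Cacna1h.

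With an end window of 5 kb, 66.7% of channel genes (51.3%) and 63.2% of partners had an end summit, the sodium minus calcium difference was −8.33 points between shares of 58.3 and 66.7%, and the pore minus auxiliary difference reversed to −16.9. With 500 bp, Cacnb2, Cacna2d1, Cacna1a and Scn8a left the 11, and the sodium minus calcium difference was 0, at 16.7% in both. With ends shared with another gene left out, Cacna1h left and the pore minus auxiliary difference was −0.769. A flank of 25 kb gave 66.7% of channel genes (63.5%), and one of 100 kb gave 97.0% (85.8%).

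Each replicate column was also used alone, with its peaks above its own median, which drops as many peaks as the median strength does. The end share ran from 18.2% (all genes 13.1%) in the second column to 27.3% (21.1%) in the first. The inside share ran from 66.7% (21.7%) in the first to 72.7% (22.3%) in the second, the flank share from 63.6% (61.9%) to 78.8% (64.0%) and the density from 0.724 (0.671) to 0.739 (0.683). The sodium minus calcium difference ran from −2.78 to 8.33, reversing in the second column, the pore minus auxiliary difference from 4.62 to 6.92, and the partner share from 21.1% (13.1%) in the second to 26.3% (21.1%) in the first. Chosen after seeing the data, the share at annotated starts ran from 25.9% (10.9%) in the second column to 37.0% (19.9%) in the first, and the length-class densities were recomputed for these lists, an IDR of 0.01 and the median strength. The channel gene density was above that of all protein-coding genes in all 4 classes under each of these 4 settings. All 4 settings select peaks from the 1 joint list, so they are not independent checks. From 100 to 300 kb the margin was small among peaks above the median joint strength, at 0.678 (0.632) from 15 summits. In the second column alone the density of that class was 0.678 (0.637), also from 15 summits. The first column kept 9 of the 11 end genes and the second 6. The median −log10 p of a single column ran at ends from 49.3 (52.9) in the first to 141 (100) in the second, so that in the first it lay below that of all genes, and inside from 26.4 (27.8) to 113 (120). No paired analysis was possible because the 1 joint list merges both immunoprecipitations and holds no input values. Depth is unknown, a missing peak may lie below the calling threshold, and families of 3 to 18 genes give wide intervals.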
